A study of Mus musculus and Homo sapiens
Mus musculus with 14 samples.

Results

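The photoreceptor fate transcription factors followed here are Otx2, Crx, Prdm1, Neurod1, Rorb, Nrl, Nr2e3, Esrrb, Thrb and Rxrg. They were taken by gene symbol from a fixed list of factors that set or keep photoreceptor identity, and 10 of 10 were found among the 24460 genes listed for the retinal layers and among the 18415 listed for the amacrine cells (25357 genes over both tables). The tissue was retina of wild-type CD1 IGS mice in the third postnatal week, fixed and cut into cryosections, with no treatment or transgene in any group. RNA was reverse transcribed in place, and drawn regions received a DNA barcode by patterned light, so that each sequenced molecule, counted once through its unique molecular identifier (UMI), carried the name of its region. In 4 sections of 1 animal the barcodes marked 3 layers: the ONL (outer nuclear layer, with rods and cones), the BCL (bipolar cell layer, with Müller glia and horizontal cells as well) and the GCL (ganglion cell layer, with displaced amacrine cells as well). In 5 other sections they marked amacrine cells that stained for tyrosine hydroxylase (TH+, the few dopaminergic cells of a section) and amacrine cells that did not (TH-, many cells).

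Levels are given in CPM, a gene's UMIs divided by all UMIs of its library and multiplied by 1e+06. ONL libraries held between 310228 and 801105 UMIs (median 580476), BCL libraries between 193869 and 208437 (median 199534) and GCL libraries between 585655 and 785013 (median 658948). The amacrine libraries were shallower, with 30317 to 87449 UMIs (median 46245) for TH+ and 134394 to 200344 (median 152105) for TH-. A count of 0 allowed up to 15.5 CPM in the shallowest BCL library and up to 99.0 CPM in the shallowest TH+ library (3 counts of the total, counting error only). Marker genes matched the labels of the layers. By edgeR's quasi-likelihood test at an adjusted p under 0.05, 9 of 9 rod markers and 8 of 8 cone markers were higher in the ONL than in the BCL, 10 of 10 bipolar and 8 of 8 Müller glia markers were higher in the BCL than in the ONL, and 10 of 10 ganglion cell markers were higher in the GCL than in the BCL. Rod marker RNA was nevertheless present in every group. The 9 rod markers took up 7.62% ± 0.636 of ONL UMIs, 1.82% ± 0.393 of BCL UMIs and 0.688% ± 0.170 of GCL UMIs (SD, n = 4 sections). In the TH+ and TH- libraries they held 3.25% ± 0.997 and 1.89% ± 0.601 (SD, n = 5 sections).

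Photoreceptors arise from progenitors that switch on Otx2, a homeodomain factor that also stays on in bipolar cells and pigment epithelium, and then its relative Crx. Prdm1 holds the bipolar programme down in young photoreceptors, while the basic helix-loop-helix factor Neurod1 supports photoreceptor differentiation and survival. Rorb, an orphan nuclear receptor, acts upstream of Nrl, the leucine zipper factor that makes a photoreceptor a rod, and Nrl switches on the nuclear receptor Nr2e3, which keeps cone genes silent in rods. Esrrb, a further orphan receptor, supports rod survival, and Thrb and Rxrg, receptors for thyroid hormone and retinoids, pattern the cone opsins.

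Upstream sequence is shown for 4 members because most members were higher together in the ONL and because several of them bind known letters of DNA, so that a reader can see which of those letters stand before their start sites. The 250 bases before each start site came from RefSeq (build GRCm38.p6), where 10 of 10 members matched with 17 start sites, and each was placed on GRCm39 by an exact match near the gene. Capitals mark TAATCC (the core bound by Otx2 and Crx), TGCTGA (part of the element bound by Maf factors such as Nrl) and AGGTCA (the site of one nuclear receptor subunit), each on either strand. The E-box CANNTG, which reads the same on both strands and is bound by factors such as Neurod1, was counted but not capitalised. Crx has 1 start site with 2 matches to TAATCC, Otx2 is shown at the third of its 4 start sites in order of the table, and Thrb at the first of 2. Nrl has 1 start site and none of the 3 capitalised motifs. All 4 genes lie on the minus strand, and the windows are chr7:15613881-15614130 (Crx), chr14:48902567-48902816 (Otx2), chr14:4808737-4808986 (Thrb) and chr14:55761710-55761959 (Nrl).
Crx: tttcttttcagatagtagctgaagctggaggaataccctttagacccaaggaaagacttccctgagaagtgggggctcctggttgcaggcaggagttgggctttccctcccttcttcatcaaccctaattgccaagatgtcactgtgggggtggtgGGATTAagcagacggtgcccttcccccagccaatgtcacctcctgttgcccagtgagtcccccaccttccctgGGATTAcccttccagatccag
Otx2: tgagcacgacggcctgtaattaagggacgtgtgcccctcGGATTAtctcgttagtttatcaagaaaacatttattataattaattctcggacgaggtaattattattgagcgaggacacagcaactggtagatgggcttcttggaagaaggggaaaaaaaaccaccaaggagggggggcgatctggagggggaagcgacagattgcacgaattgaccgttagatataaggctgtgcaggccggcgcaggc
Thrb: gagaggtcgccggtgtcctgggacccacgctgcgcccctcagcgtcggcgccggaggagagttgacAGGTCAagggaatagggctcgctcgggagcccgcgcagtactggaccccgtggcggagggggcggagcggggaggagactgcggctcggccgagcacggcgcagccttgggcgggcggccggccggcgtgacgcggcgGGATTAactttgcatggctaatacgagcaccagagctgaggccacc
Nrl: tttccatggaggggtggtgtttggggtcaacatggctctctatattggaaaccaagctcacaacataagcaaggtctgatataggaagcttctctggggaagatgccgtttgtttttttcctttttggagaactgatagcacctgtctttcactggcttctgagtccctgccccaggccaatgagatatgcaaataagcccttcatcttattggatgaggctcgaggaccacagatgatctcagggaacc

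TAATCC occurred before 3 of the 17 start sites, in Crx, Otx2 and Thrb, and in 6.25% of the 32851 promoter windows of the same length in the table. TGCTGA occurred before 3 of 17, in Otx2, Neurod1 and Rorb, against 16.1% of all windows. AGGTCA occurred before 2 of 17, in Thrb and Rxrg, against 14.0% of all windows. CANNTG occurred before 12 of 17 start sites and in 66.2% of all windows. The 17 windows are not independent, since Otx2 has 4 of them and its first 2 overlap. Those printed above for Crx, Otx2 and Thrb are the ones that hold TAATCC. A match is a run of letters and not a site shown to be bound, and Nr2e3, Prdm1 and Esrrb held none of the 3 capitalised motifs in these windows.

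On GRCm39 Crx lies on chr7:15599872-15613893, Neurod1 on chr2:79282865-79287294, Nr2e3 on chr9:59850054-59867942, Prdm1 on chr10:44313171-44404497 and Rorb on chr19:18907969-19088585, all on the minus strand. Rxrg (chr1:167425673-167467193) and Esrrb (chr12:86407887-86568409) lie on the plus strand. Chromosome 14 carries 3 members on the minus strand, Thrb (chr14:4429815-4809435), Otx2 (chr14:48894099-48911276) and Nrl (chr14:55756435-55762438). Exons of Otx2, Neurod1, Nr2e3, Esrrb and Thrb share between 61 and 274 bases with exons of other annotated genes, the largest overlap with a single gene being 6.97% of the exon length, in Neurod1. Some of these genes lie on the same strand and some on the opposite one, so such overlaps could change a member's count.

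Together the 10 members made up 1.05% ± 0.0631 of ONL UMIs, 0.388% ± 0.0504 of BCL UMIs and 0.120% ± 0.0253 of GCL UMIs (SD, n = 4 sections). Crx was the leading member in the ONL, with 28.9% of the 23576 member UMIs there, followed by Nrl with 18.3%. In the GCL the leading member was Rorb, with 28.3% of 3235 member UMIs. Per kilobase of exon, the scale on which genes can be compared, the mean level in the ONL fell from Crx (966 CPM per kb) through Neurod1 (441), Nrl (337), Esrrb (266), Nr2e3 (215), Otx2 (107), Rorb (101), Thrb (44.7) and Prdm1 (14.0) to Rxrg (5.45). Among neighbours in that order, the ranges over sections overlapped for Otx2 and Rorb and for no other pair. In the BCL the order per kilobase began with Crx (293 CPM per kb), Neurod1 (173) and Otx2 (119), and from Otx2 to Nr2e3 each range overlapped that of the next gene. In the GCL the first 4 members per kilobase were Crx (79.0 CPM per kb), Neurod1 (46.3), Nrl (34.4) and Rorb (30.8), with overlapping ranges between neighbours.

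**Figure D1:**
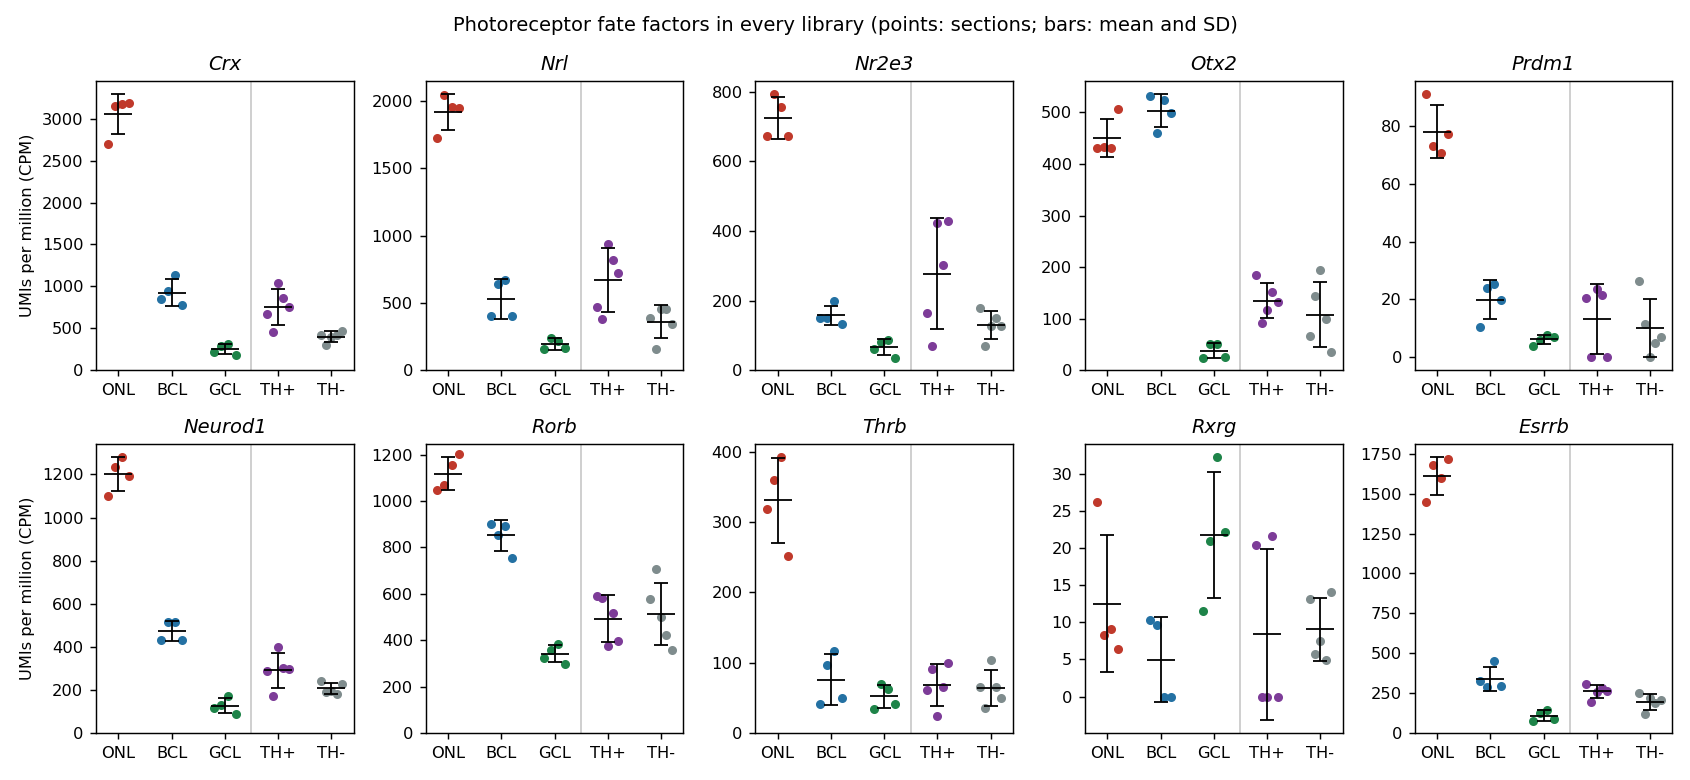
Level of each member in every library, in CPM on a linear axis that differs between panels, for the 3 layers and the TH+ and TH- amacrine cells. Points are sections, and the black bars give the mean and SD (n = 4 sections for layers and 5 for amacrine cells). The ONL points of Crx, Nrl, Nr2e3, Prdm1, Neurod1, Rorb, Thrb and Esrrb all lie above their BCL and GCL points, Otx2 is as high in the BCL as in the ONL, and the highest Rxrg point is in the GCL. Layers and amacrine cells were sequenced separately and are only set side by side.

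The first question put to the data was how far each factor marks the photoreceptor layer against the bipolar layer. By edgeR's quasi-likelihood test, 9 of the 10 members were higher in the ONL than in the BCL at an adjusted p under 0.05, where 18.5% of the 11324 genes tested were called in that direction and 18.2% in the other. The median log2 fold change of the members was 2.11, against 0.09 for all genes tested. Against the GCL, 9 of 10 members were again higher in the ONL, where 29.3% of genes were called that way and 32.2% the other way, and the members' median was 3.53 against 0.00 for all genes. Between the BCL and the GCL, 8 members were called higher in the BCL (16.1% of all genes were) and 1 higher in the GCL (20.4% of all genes were). All 10 members passed the low-count filter in the layers. The comparisons share libraries, so their values are given side by side and not as independent results, and the sections come from 1 animal, so every p over sections is too small as a statement about animals. RNA of fewer cells and less RNA per cell cannot be told apart in these regions.

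How the libraries are scaled moved the ONL against the rest of the table. With column totals in place of TMM the median log2 fold change of all genes went from 0.09 to -0.25 for the ONL against the BCL, from 0.00 to -0.16 for the ONL against the GCL and from -0.02 to 0.15 for the BCL against the GCL. For the ONL against the BCL, 2096 genes called for the first layer and 2056 for the second became 1198 and 2889. Among the members only the sign of Otx2 in the ONL against the BCL turned with it.

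Otx2 did not separate the photoreceptor layer from the bipolar layer. Its level was 432, 433, 431 and 506 CPM in ONL sections 1 to 4 and 531, 461, 523 and 499 CPM in the BCL sections. It was 24.2, 51.0, 50.7 and 25.6 CPM in the GCL sections. The ONL and BCL ranges overlapped, with the BCL higher in 3 of 4 sections on this scale, and every GCL section lay far below both. The log2 fold change of the ONL over the BCL was 0.16 ± 0.13 (SE, n = 4 sections a layer, edgeR adjusted p = 0.353) and became -0.18 with column totals. Against the GCL, Otx2 was higher in the ONL by 3.72 ± 0.15 (edgeR adjusted p = 1.55e-27) and in the BCL by 3.56 ± 0.17 (edgeR adjusted p = 3.04e-24) on the log2 scale, in 4 of 4 sections each.

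Crx, the closest relative of Otx2 here, was highest in the photoreceptor layer. ONL sections 1 to 4 gave 2694, 3154, 3173 and 3191 CPM. The BCL sections gave 846, 940.3, 1138 and 776 CPM and the GCL sections 223, 288, 310.5 and 178 CPM. No ranges overlapped between layers, and the first ONL section was the lowest of its layer. The log2 fold change was 2.05 ± 0.13 for the ONL over the BCL (edgeR adjusted p = 1.47e-19) and 3.77 ± 0.13 over the GCL (edgeR adjusted p = 5.06e-30), and 4 of 4 sections showed each direction.

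Prdm1, the repressor of the bipolar programme, was the scarcest of the early factors. It gave 91.1, 73.3, 70.8 and 77.4 CPM in the ONL sections, 10.3, 24.0, 25.4 and 19.8 CPM in the BCL sections and 3.82, 5.99, 7.68 and 6.83 CPM in the GCL sections. The BCL and GCL values rested on 16 UMIs each over 4 sections. The ONL ranges lay above both others, with log2 fold changes of 2.31 ± 0.31 over the BCL (edgeR adjusted p = 9.68e-09) and 3.84 ± 0.28 over the GCL (edgeR adjusted p = 5.96e-18). The step from BCL to GCL, 1.54 ± 0.49 (edgeR adjusted p = 0.011), was called over 4 sections but not without section 2 (adjusted p = 0.0645) or without section 3 (adjusted p = 0.0508).

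Neurod1 also declined from layer to layer. ONL sections gave 1099.7, 1235, 1283 and 1193 CPM, BCL sections 433, 513, 513 and 430.1 CPM and GCL sections 116, 130.4, 171 and 88.8 CPM. The layers did not overlap, and the BCL kept 39.3% ± 2.31 of the ONL level (SD of the ratio within sections, n = 4). The log2 fold changes were 1.67 ± 0.13 for the ONL over the BCL (edgeR adjusted p = 2.23e-16) and 1.73 ± 0.15 for the BCL over the GCL (edgeR adjusted p = 2.71e-14).

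Rorb, upstream of Nrl in rod formation, was the most evenly spread of the abundant members. Its ONL sections gave 1049, 1069, 1155 and 1202 CPM, its BCL sections 903, 854, 894 and 756 CPM and its GCL sections 325, 357, 383 and 299 CPM. The ranges did not overlap, though the lowest ONL and highest BCL sections lay close together. The ONL exceeded the BCL by only 0.71 ± 0.11 on the log2 scale (edgeR adjusted p = 3.04e-07) and the GCL by 1.87 ± 0.11 (edgeR adjusted p = 1.02e-21). With column totals in place of TMM the difference from the BCL was 0.38 (edgeR adjusted p = 0.00338).

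Nrl, which gives rods their identity, gave 1724, 2045, 1954 and 1944 CPM in the ONL sections. It gave 402, 643, 671 and 400.4 CPM in the BCL and 154, 243, 218 and 167 CPM in the GCL. Sections 2 and 3 were the high ones of both inner layers, and no layers overlapped. The log2 fold change of the ONL was 2.18 ± 0.14 over the BCL (edgeR adjusted p = 2.60e-19) and 3.45 ± 0.14 over the GCL (edgeR adjusted p = 3.56e-28).

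Nr2e3, the rod repressor of cone genes, followed Nrl. The ONL sections gave 673, 793, 756 and 674 CPM, the BCL sections 149.6, 149, 198 and 133 CPM and the GCL sections 59.9, 82.4, 86.1 and 35.9 CPM. The layers did not overlap. Its log2 fold change was 2.53 ± 0.16 for the ONL over the BCL (edgeR adjusted p = 1.47e-19) and 3.61 ± 0.14 over the GCL (edgeR adjusted p = 4.19e-28).

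Esrrb, the receptor linked to rod survival, had large fold changes in both comparisons with the ONL. By the larger SE of each pair, it lay within 1 SE of Nr2e3, Thrb and Prdm1 over the BCL. Over the GCL it lay within 1 SE of Prdm1. Esrrb gave 1446, 1682, 1598 and 1715 CPM in the ONL sections, 325, 288, 452 and 292 CPM in the BCL sections and 76.4, 126, 144 and 88.8 CPM in the GCL sections. The ONL ranges stood clear of both others. The log2 fold change was 2.57 ± 0.14 over the BCL (edgeR adjusted p = 1.11e-21) and 4.05 ± 0.14 over the GCL (edgeR adjusted p = 3.07e-30).

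Thrb, the thyroid hormone receptor of cone patterning, gave 318, 359.7, 393 and 251 CPM in the ONL sections. The BCL sections gave 41.3, 96.0, 117 and 49.4 CPM and the GCL sections 34.4, 68.9, 63.0 and 41.0 CPM. The ONL lay above both other layers in 4 of 4 sections, while the BCL and GCL ranges overlapped. The log2 fold change was 2.47 ± 0.21 for the ONL over the BCL (edgeR adjusted p = 9.58e-15) and 2.86 ± 0.17 over the GCL (edgeR adjusted p = 1.53e-21). Between BCL and GCL it was 0.40 ± 0.28 (edgeR adjusted p = 0.284), which did not pass.

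Rxrg, the retinoid X receptor of cones, was the exception among the members. It gave 26.2, 8.30, 9.13 and 6.45 CPM in the ONL sections from 33 UMIs, and 10.3, 9.60, 0 and 0 CPM in the BCL sections from 4 UMIs. In the GCL sections it gave 11.5, 21.0, 32.3 and 22.2 CPM from 57 UMIs. The GCL was above the BCL in 4 of 4 sections and above the ONL in 3 of 4, with the first ONL section standing apart. The BCL was lower than the GCL by a log2 fold change of -2.19 ± 0.67 (edgeR adjusted p = 0.00727), a call that was lost without section 3 (adjusted p = 0.0915). The ONL against the GCL gave -0.39 ± 0.37 (edgeR adjusted p = 0.372), and without section 1 it gave -1.44 (adjusted p = 0.00485), higher in the GCL. The ONL over the BCL, 1.80 ± 0.73 (edgeR adjusted p = 0.0462), just passed and failed under 8 of the 11 alternatives tried, among them DESeq2 (adjusted p = 0.137), the section as a block (adjusted p = 0.0505) and section 1 left out (adjusted p = 0.22).

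**Figure D2:**
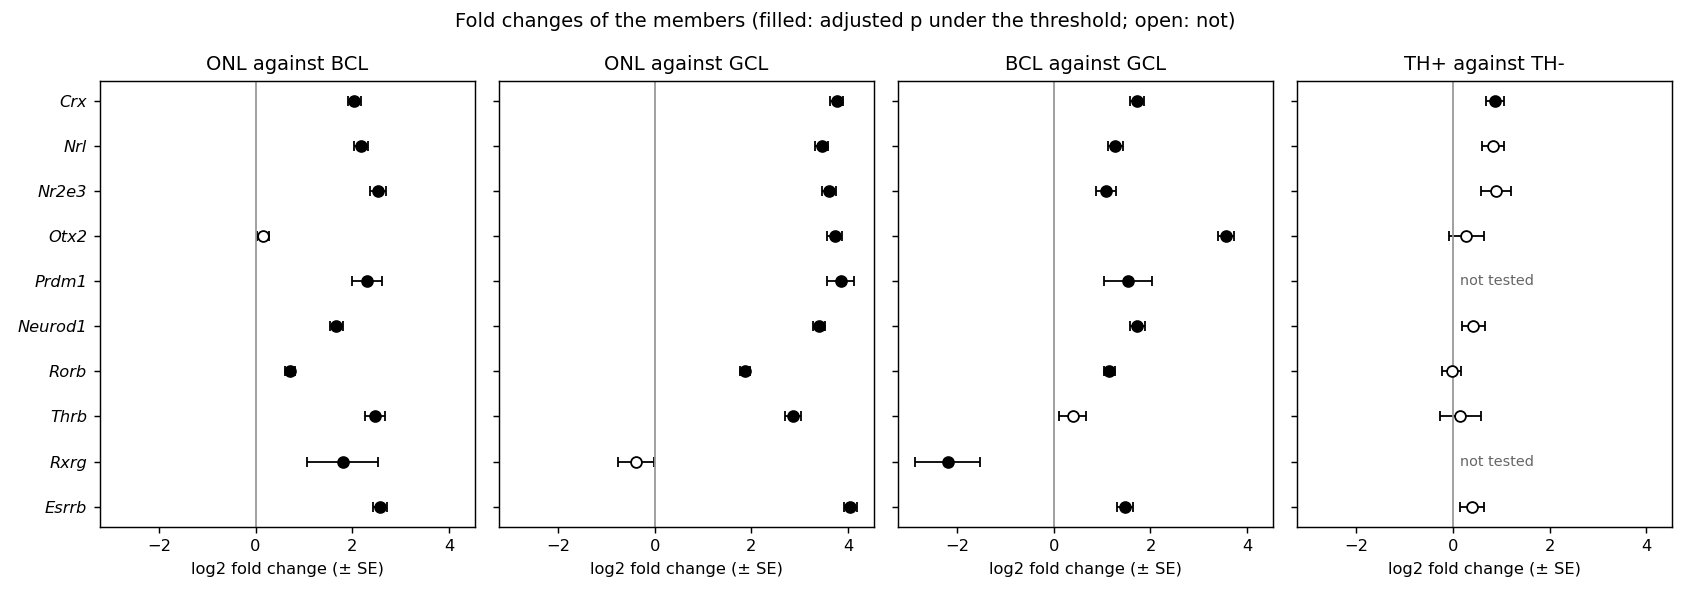
Log2 fold change of each member with its standard error, in 4 comparisons named first group against second group. Filled points passed an adjusted p of 0.05 in edgeR and open points did not. Otx2 alone is open for the ONL against the BCL (0.16), Rxrg alone for the ONL against the GCL (-0.39) and Thrb alone for the BCL against the GCL (0.40), while Crx alone is filled for TH+ against TH-. Prdm1 and Rxrg were not tested in the amacrine libraries.

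Since rod RNA reached every library, the level of each member in the BCL and the GCL was set beside that of the rod markers in the same sections. The 9 rod markers stood at a median of 24.2% of their ONL level in the BCL (17.6% to 31.2%) and 9.21% in the GCL (6.28% to 11.3%). Crx stood at 30.4% ± 4.77 in the BCL, Nrl at 27.4% ± 6.51, Nr2e3 at 21.8% ± 3.31, Esrrb at 21.2% ± 5.37, Prdm1 at 26.4% ± 10.9 and Thrb at 22.3% ± 7.51 (SD, n = 4 sections each), all inside the range of the rod markers. Neurod1 at 39.3% ± 2.31, Rorb at 76.6% ± 9.81 and Otx2 at 112% ± 11.8 lay above it. The mean for Rxrg, 38.7% ± 54.5, rested on 4 BCL UMIs.

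In the GCL the members inside the range of the rod markers were Crx at 8.19% ± 1.85 of the ONL level, Nrl at 10.1% ± 1.62, Nr2e3 at 9.0% ± 2.66, Esrrb at 6.75% ± 1.86, Prdm1 at 8.01% ± 2.79, Neurod1 at 10.5% ± 2.39 and Otx2 at 8.55% ± 3.72. Thrb at 15.6% ± 3.48, Rorb at 30.6% ± 3.97 and Rxrg at 249% ± 144 lay above it (SD, n = 4 sections each). The part of stray light or of RNA from rods in these levels was not tested.

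Counted per 1000 UMIs of the 9 rod markers in the same library, Otx2 reached 5.94 ± 0.539 UMIs for the ONL, 28.6 ± 6.13 for the BCL and 5.36 ± 1.02 for the GCL. Rorb reached 14.7 ± 0.784 in ONL libraries, 48.2 ± 10.1 in BCL libraries and 50.9 ± 8.0 in GCL libraries. Rxrg reached 0.173 ± 0.146 for the ONL, 0.312 ± 0.366 for the BCL and 3.11 ± 0.812 for the GCL. Nr2e3, by contrast, held 9.53 ± 0.840, 8.74 ± 1.01 and 9.51 ± 2.22 in the 3 layers (SD, n = 4 sections each), values within 1 SD of each other. Crx reached 40.1 ± 0.720 for the ONL, 51.3 ± 5.18 for the BCL and 36.5 ± 4.47 for the GCL. Its BCL range lay above that of the ONL. Esrrb reached 21.2 ± 0.947, 18.8 ± 2.61 and 15.7 ± 0.910, with the GCL range below that of the ONL. Neurod1 reached 15.8 ± 0.643 for the ONL, 26.5 ± 3.66 for the BCL and 18.4 ± 2.68 for the GCL, with the BCL range above that of the ONL. Thrb reached 4.36 ± 0.812, 4.03 ± 1.32 and 7.45 ± 1.08, with the GCL range above those of the ONL and the BCL. For Nrl and Prdm1 the ranges of the 3 layers overlapped.

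**Figure D3:**
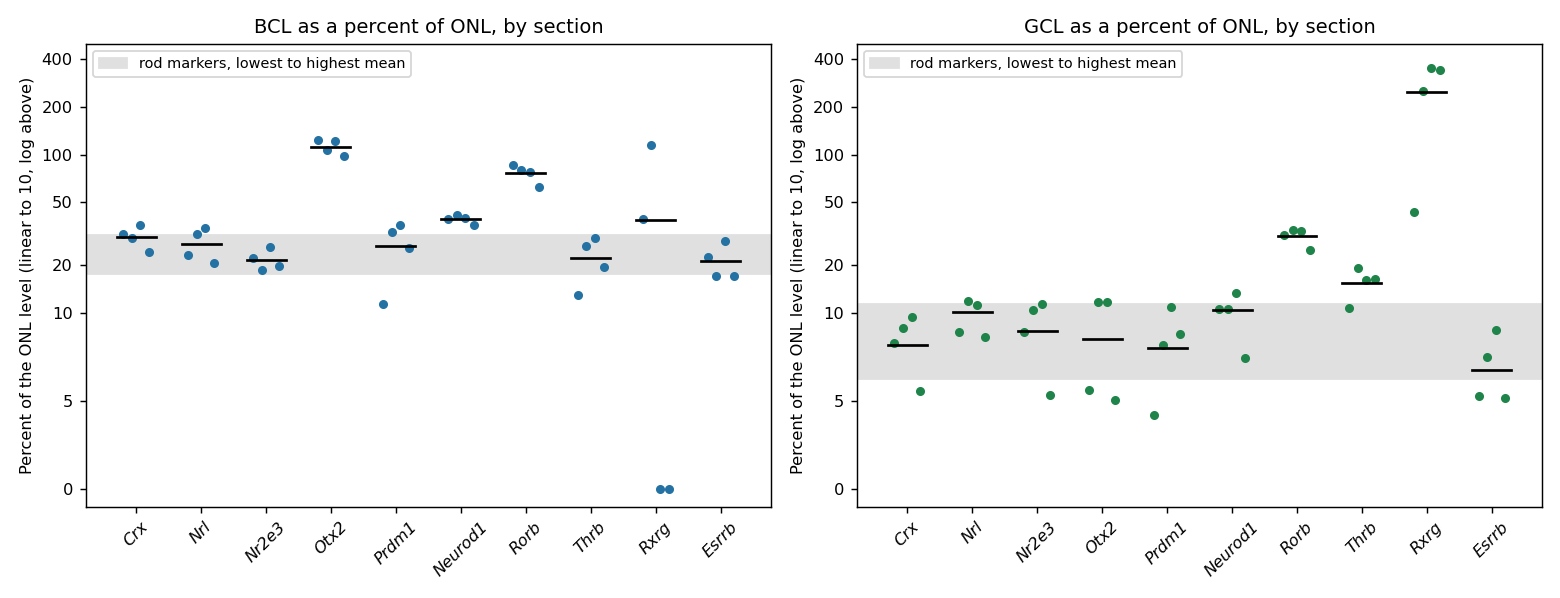
Level of each member in the BCL and in the GCL as a percent of its level in the ONL of the same section. Points are the 4 sections, black lines their means, and the grey band runs from the lowest to the highest mean of the 9 rod markers. The axis is linear up to 10 and logarithmic above. In the BCL the means of Otx2 (112%) and Rorb (76.6%) lie well above the band, and in the GCL those of Rorb (30.6%) and Rxrg (249%) do.

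A ratio of 2 members within a library does not depend on its depth or scaling, so 3 such shares were compared between layers with exact two-sided permutation tests over sections, 9 tests in all. Otx2 made up 13.8%, 12.1%, 12% and 13.7% of the Otx2 and Crx UMIs in ONL sections 1 to 4. In the BCL sections the share was 38.6%, 32.9%, 31.5% and 39.1%, and in the GCL sections 9.79%, 15%, 14% and 12.6%. Every BCL section lay above every section of the other layers. The share differed by -22.6 points between ONL and BCL and by 22.7 points between BCL and GCL, in 4 of 4 sections each. For both, the exact permutation p = 0.0286 was the smallest that 4 sections against 4 allow and the adjusted p = 0.0643 over the 9 tests did not pass. ONL and GCL differed by 0.0152 points (exact permutation p = 1).

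The Rorb share of the Rorb and Nrl UMIs was 37.8%, 34.3%, 37.2% and 38.2% in the ONL sections, 69.2%, 57.1%, 57.1% and 65.4% in the BCL sections and 67.8%, 59.5%, 63.7% and 64.1% in the GCL sections. The ONL lay below both others without overlap, by -25.3 points against the BCL and -26.9 points against the GCL (exact permutation p = 0.0286 and adjusted p = 0.0643 for each). BCL and GCL overlapped (exact permutation p = 0.686). The Nr2e3 share of the Nr2e3 and Nrl UMIs averaged 27.4% ± 1.12 for the ONL, 23.4% ± 3.55 for the BCL and 24.8% ± 4.96 for the GCL (SD, n = 4 sections), with overlapping ranges and a smallest exact permutation p = 0.0571 (adjusted p = 0.103). An exact test within sections, which pairs the layers of a section, could not go below p = 0.125 and gave that value for the Otx2 and Rorb shares that did not overlap and for the Nr2e3 share between ONL and BCL.

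**Figure D4:**
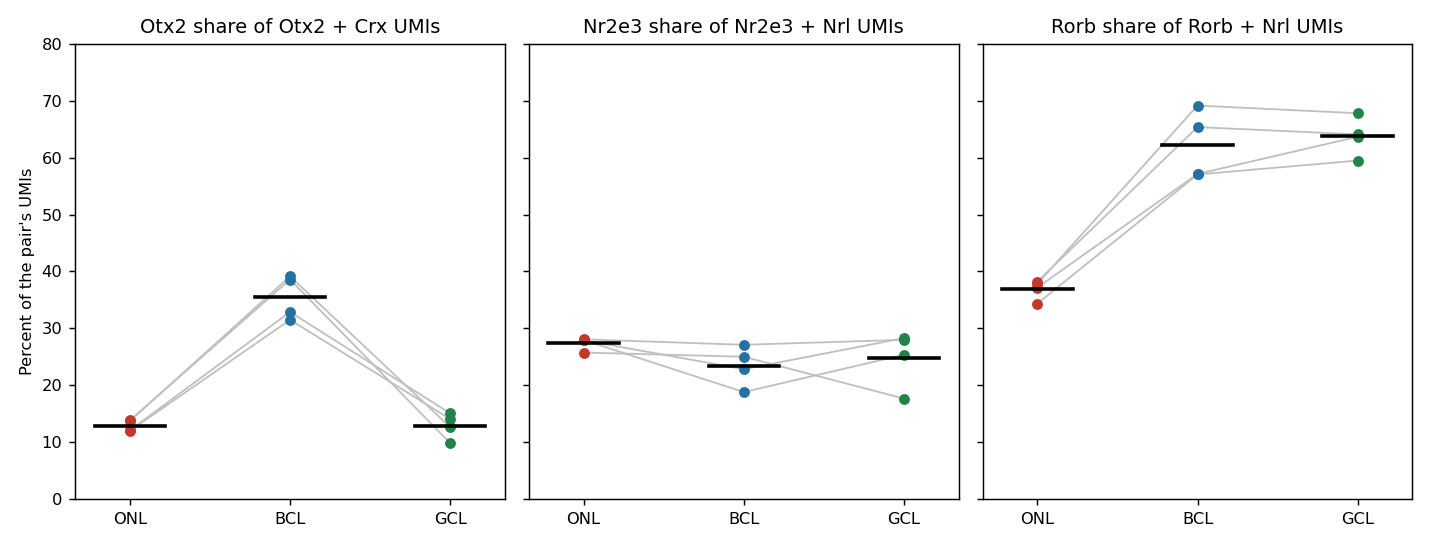
Share of each named member in the UMIs of a pair of members, in percent, by layer. Points are sections, grey lines join the layers of one section and black bars are means (n = 4 sections). The Otx2 share is highest in the BCL (mean 35.5%), the Nr2e3 share overlaps between layers, and the Rorb share is lowest in the ONL (mean 36.9%).

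Genes that work with the members or respond to them were counted from fixed lists. Beside their counts stand the shares of all genes tested, which were 18.5% for the ONL and 18.2% for the BCL when those 2 were compared, 29.3% for the ONL and 32.2% for the GCL, and 16.1% for the BCL and 20.4% for the GCL. Of 20 rod genes known as targets of Crx, Nrl or Nr2e3, 20 were listed and 19 tested, and 19 of 19 were higher in the ONL than in the BCL, with a median log2 fold change of 2.28. The leading ones were Rp1 at 2.84 ± 0.14 (axoneme), Grk1 at 2.66 ± 0.14 (a photoreceptor kinase), Kcnv2 at 2.68 ± 0.14 (potassium channel) and Prph2 at 2.57 ± 0.14 (disc rim), each with edgeR adjusted p of 8.69e-22 or less. Against the GCL the 19 were also higher in the ONL (median 3.54), led by Grk1 at 4.01 ± 0.14, Kcnv2 at 3.97 ± 0.14, Rp1 at 4.15 ± 0.14 and the disc protein Rom1 at 3.46 ± 0.13. Between BCL and GCL, 19 of 19 were higher in the BCL (median 1.25), led by Gnat1 at 1.38 ± 0.14 (rod transducin), Pde6g at 1.29 ± 0.13, Pde6a at 1.30 ± 0.15 (rod phosphodiesterase) and Rp1 at 1.31 ± 0.15.

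Of 12 cone targets, 12 were tested and 11 were higher in the ONL than in the BCL, with a median of 2.60. They were led by the cone opsins Opn1sw at 3.52 ± 0.20 and Opn1mw at 3.73 ± 0.31, cone arrestin Arr3 at 3.46 ± 0.30 and the G protein subunit Gnb5 at 1.38 ± 0.13. The same 4 genes led the 12 of 12 called higher in the ONL than in the GCL (median 3.67), with Opn1sw at 4.68 ± 0.19, Gnb5 at 2.15 ± 0.12, Opn1mw at 3.76 ± 0.22 and Arr3 at 3.59 ± 0.22. Between BCL and GCL 6 of 12 were higher in the BCL (median 1.13), led by Gnb3 at 3.49 ± 0.22, Gnb5 at 0.78 ± 0.16, Gngt2 at 2.49 ± 0.55 and Opn1sw at 1.17 ± 0.27. Gnb3 is also a G protein subunit of ON bipolar cells. Gnb5 stood at 48.7% ± 6.84 of its ONL level in the BCL and 25.2% ± 4.83 in the GCL (SD, n = 4 sections). The medians of the 12 cone targets were 20.6% and 9.57%. Gnb5 was also the most abundant cone target in the GCL, TH+ and TH- libraries. Whether the Gnb5 RNA came from cones was not tested.

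The 9 regulators of bipolar fate ran the other way. All 9 were tested and 9 of 9 were higher in the BCL than in the ONL, with a median of -3.38. Among them were Isl1 at -3.38 ± 0.25, Vsx1 at -4.04 ± 0.36 and Nfib at -2.63 ± 0.25. Between BCL and GCL 6 were higher in the BCL, among them Vsx1 at 4.99 ± 0.38, Bhlhe23 at 5.07 ± 0.46 and Nfib at 1.88 ± 0.21, and 1, Irx6, was higher in the GCL (-1.23 ± 0.31). Between ONL and GCL, 5 were higher in the GCL, led by Irx6 at -2.95 ± 0.31, Isl1 at -1.94 ± 0.26, Bhlhe22 at -2.34 ± 0.39 and Irx5 at -2.47 ± 0.47. Lhx3 had no UMI in the GCL libraries.

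Partners and other regulators of photoreceptor fate were called in both directions. Of 20 listed by name 19 were in the table and 15 were tested, with 5 called for the ONL (18.5% of all genes were) and 7 for the BCL (18.2% of all genes, list median -0.14). Those higher in the ONL were led by Casz1 at 2.68 ± 0.15, Samd7 at 2.60 ± 0.19, Pias3 at 2.13 ± 0.16 and Samd11 at 2.23 ± 0.18. Those higher in the BCL were led by Lhx4 at -3.29 ± 0.22, Tbx2 at -2.73 ± 0.19, Notch1 at -2.35 ± 0.21 and Onecut2 at -3.39 ± 0.37. Against the GCL 9 were higher in the ONL, led by Casz1 at 3.41 ± 0.13, Samd7 at 3.86 ± 0.17, Samd11 at 2.7 ± 0.14 and Pias3 at 2.47 ± 0.13 (29.3% of all genes), and 5 in the GCL (32.2% of all genes), led by Ikzf4 at -1.83 ± 0.31, Notch1 at -1.01 ± 0.21, Tbx2 at -0.90 ± 0.21 and Onecut2 at -1.32 ± 0.42. Between BCL and GCL 9 were called for the BCL and 0 for the GCL, led by Lhx4 at 4.6 ± 0.25, Tbx2 at 1.83 ± 0.16, Notch1 at 1.34 ± 0.18 and Onecut2 at 2.07 ± 0.29. Olig2 was not in the table of the layers, and Neurog2 and Ikzf1 had no UMI in the BCL.

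Relatives of the members by sequence were called in both directions. Of 19 paralogues 15 were tested, and 3 were higher in the ONL than in the BCL (18.5% of all genes were), among them Rora at 0.92 ± 0.12 and Rxra at 1.77 ± 0.24. Another 7 were higher in the BCL (18.2% of all genes), led by Neurod4 at -3.67 ± 0.15, Prdm8 at -1.44 ± 0.24, Neurod2 at -2.42 ± 0.45 and Thra at -1.01 ± 0.20 (list median -0.92). Neurod4, the relative of Neurod1 known for its part in bipolar and amacrine cells, averaged 57.6 ± 18.7 CPM in the ONL and 948 ± 84.6 CPM in the BCL. Against the GCL, 4 were higher in the ONL (Rora 1.41 ± 0.11, Rxra 1.92 ± 0.18, Esrrg 0.77 ± 0.14, Neurod4 1.04 ± 0.23, beside 29.3% of all genes) and 7 in the GCL (32.2% of all genes), led by Thra at -2.16 ± 0.15, Neurod2 at -2.13 ± 0.38, Nr2f1 at -2.03 ± 0.40 and Nr2f2 at -1.52 ± 0.32. Between BCL and GCL, 5 were higher in the BCL, led by Neurod4 at 4.71 ± 0.16, Prdm8 at 1.48 ± 0.23, Esrrg at 0.69 ± 0.16 and Rora at 0.49 ± 0.12, and 3 in the GCL (20.4% of all genes), among them Thra at -1.16 ± 0.16 and Nr2f2 at -1.03 ± 0.39. Neurod6 had no UMI in the ONL or the BCL, and Otx1 and Mafa had none in the BCL.

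The genes outside the members that were most like each member over the 12 layer libraries, among 6822 genes with a mean of at least 10 UMIs, were found by Pearson correlation of log2 CPM and are given as a description. Crx was most like E130310I04Rik (0.997), Unc119 and Tnfaip3. Nrl was most like Tulp1 (0.998), Tlcd3b and the rod phosphodiesterase gene Pde6b. Nr2e3 was most like Prr14 (0.996) and Prph2, and Esrrb was most like Pcdh15 (0.997), Pde6a and Tulp1. Neurod1 was most like Unc119 (0.997), Kmt2a and Scarb1, and Crx and Neurod1 correlated with each other at 0.996. Prdm1 was most like Otud7b (0.992), Arhgef26 and Trpc1. Otx2 was most like Mbd6 (0.995) and Unc13b, Rorb like Gse1 (0.996), Msi1 and Plch2, and Thrb like H4c3 (0.991), Sec14l2 and Pitpnm3. Genes like Rxrg were Map2k2 (0.895) and Syndig1l (0.892). The 12 points are 3 layers of 4 sections, so these coefficients mostly describe the difference between layers.

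In the amacrine cells the question was whether the members differ between dopaminergic and other amacrine cells. Neither group consists of photoreceptors, and both lie in the inner retina. Of the 10 members 8 were tested, and Crx was called higher in TH+ and none higher in TH-, where 0.747% of the 6021 genes tested were called higher in TH+ and 0.0830% higher in TH-. The median log2 fold change of the 8 was 0.41, against -0.05 for all genes. Prdm1 (3 UMIs in TH+ and 8 in TH-) and Rxrg (2 and 7 UMIs) fell below the filter. The methods speak of 1 source animal, so these 5 sections are taken to share it, and every p over them is too small as a statement about animals.

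Crx gave 674, 457, 1035, 865 and 759 CPM in TH+ sections 1 to 5 and 421, 295, 402, 414 and 465 CPM in the TH- libraries of the same sections. TH+ was higher in 5 of 5 sections, and the ranges overlapped only through section 2 of TH+. The log2 fold change was 0.87 ± 0.19 (SE, n = 5 sections, edgeR adjusted p = 0.00691). With the section as a block it was 0.90 ± 0.16 (adjusted p = 1.72e-06), and without section 3 or section 4 it was not called, at 0.72 (adjusted p = 0.194) and 0.81 (adjusted p = 0.123), nor without the low-count filter (adjusted p = 0.0521).

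Nrl gave 469.6, 377, 941, 822 and 726 CPM in TH+ and 388, 156, 454, 454 and 345 CPM in TH-, higher in TH+ in 5 of 5 sections. Its log2 fold change of 0.82 ± 0.23 did not pass (edgeR adjusted p = 0.0648), but passed with the section as a block at 0.89 (adjusted p = 1.29e-05), without section 2 (adjusted p = 0.00521) and with DESeq2-style size factors (adjusted p = 0.0446). Nr2e3 gave 163, 68.6, 423, 303 and 429 CPM in TH+ and 178, 69.4, 126, 149.7 and 127 CPM in TH-, higher in TH+ in sections 3, 4 and 5. Its log2 fold change of 0.89 ± 0.32 did not pass (edgeR adjusted p = 0.261), but passed with the block (adjusted p = 0.0161) and without section 2 (adjusted p = 0.0167).

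Rod genes moved with these members. Of the 9 rod markers 4 were called higher in TH+ and 0 in TH-, and the summed rod markers were 3.13%, 1.56%, 3.87%, 3.95% and 3.73% of UMIs in TH+ sections 1 to 5 against 2.29%, 0.886%, 2.19%, 2.30% and 1.76% in TH-. TH+ was higher in 5 of 5 sections. Of the 19 rod targets tested 6 were called higher in TH+ (median 0.72), led by Rp1 at 1.05 ± 0.19, Prph2 at 0.93 ± 0.19, Sag at 0.78 ± 0.20 and Rbp3 at 0.72 ± 0.19. Per 1000 rod marker UMIs, Crx held 24.0 ± 3.87 UMIs in TH+ and 22.9 ± 6.81 in TH- (SD, n = 5 sections), within the spread. The part of the rod RNA in the Crx difference was not tested. The 8 Müller glia markers ran the other way, at 0.375% ± 0.0599 of UMIs in TH+ and 0.557% ± 0.102 in TH- (SD, n = 5 sections), lower in TH+ in 5 of 5 sections, and the 10 amacrine markers (0.514% ± 0.0824 and 0.637% ± 0.129) and 6 horizontal cell markers (0.129% ± 0.0327 and 0.171% ± 0.0245) were also lower in 5 of 5. Tfap2b is in both the amacrine and the horizontal cell list, so these 2 sums are not separate. It was the most abundant horizontal cell marker, at 678 CPM in TH+ and 845 CPM in TH-. The Müller glia median log2 fold change was -0.55 and that of the bipolar markers -0.75, with no gene of either list called. Of the 10 amacrine markers 1 was called higher in TH+ and 1 higher in TH-. Th, which is among these 10, stood in TH- at 5.69% ± 6.08 of its TH+ level (SD, n = 5 sections).

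None of the remaining members tested was called between the amacrine groups. Otx2 averaged 135 ± 34.8 CPM in TH+ and 108 ± 62.8 in TH-, a log2 fold change of 0.28 ± 0.36 (edgeR adjusted p = 0.904). Neurod1 averaged 291 ± 81.1 and 207 ± 26.7 CPM (0.42 ± 0.24, edgeR adjusted p = 0.634). Rorb averaged 493 ± 102 and 513 ± 135 CPM (-0.02 ± 0.20, edgeR adjusted p = 0.990), and Thrb averaged 68.0 ± 29.8 and 63.8 ± 25.9 CPM (0.15 ± 0.42, edgeR adjusted p = 0.962). Esrrb averaged 261 ± 41.5 and 194 ± 49.8 CPM and was higher in TH+ in 5 of 5 sections, but did not pass (0.39 ± 0.25, edgeR adjusted p = 0.7102). None of the paralogues (12 tested), the partners (11 tested), the bipolar regulators (4 tested) or the cone targets (4 tested) was called in either direction.

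**Figure D5:**
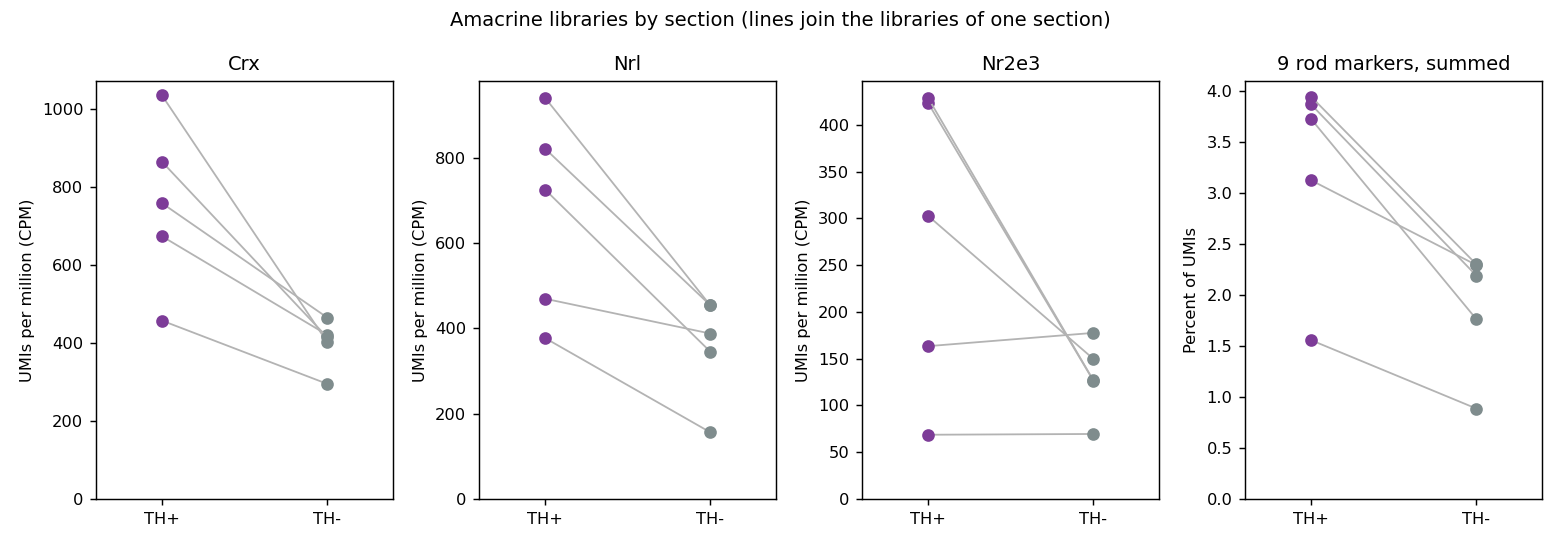
Crx, Nrl and Nr2e3 in CPM and the 9 rod markers as a percent of UMIs, in the TH+ and TH- libraries of the 5 sections. Lines join the libraries of one section, and every axis starts at 0. Crx, Nrl and the summed rod markers are higher in TH+ in 5 of 5 sections, and Nr2e3 in 3 of 5.

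Mouse 3T3 fibroblasts, grown in 3 wells together with human cells, served as cells from outside the retina. They were barcoded by patterned light too, but without the blocking and crowding agents that the paper added to the hybridization for tissue. The paper also reports that a minority of reads in this culture carried the barcode of the other species. Over 540880 UMIs, 8 of the 10 members had 0 UMIs, which allows a level of up to 5.55 CPM. Thrb had 5 UMIs (9.24 CPM) and Rxrg 1 UMI, and a deeper sequencing of well 2 gave 0 for Thrb and 2 for Rxrg.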

How the data were processed

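The deposited counts are deduplicated UMIs per gene, made by the authors without normalization. They took UMIs with UMI-tools 1.1.1, mapped reads with STAR 2.7.9a to mouse GENCODE genes on mm39, discarded reads with several matches, counted exons with featureCounts and split libraries by exact barcode match. The exon length per gene, in another deposited column, is the merged exon bases that the authors obtained from featureCounts.

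Levels are CPM of the library total. Tests used edgeR 4.0.16 (quasi-likelihood F-test, TMM factors, R 4.3.3). Its expression filter, set to 3 UMIs per library and 10 over all, kept 11324 genes for the joint fit of 12 layer libraries and 6021 for that of 10 amacrine libraries. Adjusted p follow Benjamini-Hochberg over all genes of a fit at 0.05. Standard errors were derived as the absolute log2 fold change over the root of F. The common biological variation estimated by edgeR was 9.17% for layers and 16.0% for amacrine cells at depths of 30317 to 801105 UMIs. Shares of a pair of members were compared with exact permutation tests in python 3.11.15, and figures used matplotlib 3.10.9. The fit was tested on simulated data.

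Libraries of a section share its tissue. After removing group means, libraries cut from the same section had residuals correlated at 0.0116 to 0.0493 for 12 pairs of layers (0 above 0.1) and at 0.0287 to 0.257 for 5 amacrine pairs (2 above 0.1), so the section as a block was an alternative. Libraries of different sections gave -0.0609 to 0.0431 and -0.117 to 0.0418. The other alternatives were DESeq2 1.42.0, DESeq2-style size factors, column totals, no filter, the default filter, no mitochondrially encoded genes and each section left out in turn.

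The members and lists were chosen with earlier results of these data known. The genes named are all 10 members, up to 4 genes per list and direction by smallest adjusted p with any list gene at 0 where those number 3 or fewer, and the 3 genes most like each member. Some genes that these rules give are not reported here. Gene positions were read from a newer GENCODE annotation of GRCm39. It gives some members more exon bases than the deposited lengths, among them Rxrg (5033 against 2297), Otx2 (5409 against 4221) and Thrb (9194 against 7398). Whether this changes their counts or levels per kilobase was not tested. Human cells were not used here.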

Additional observations from a re-analysis of the deposited data

Results flagged for a closer look

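In 65 groups of 4 or 5 sections, 4 had a section standing apart from the others by Dixon's test at 95%, where chance gives about 1 in 20 groups. All 4 are in the ONL. Crx was lowest in section 1, at 2694 CPM against 3154 CPM in the next section. Otx2 was highest in section 4, at 506 CPM against 433 CPM in the next. Rxrg was highest in section 1, at 26.2 CPM against 9.13 CPM in the next, and its comparison with the GCL was called without that section. The Nr2e3 share of the Nr2e3 and Nrl UMIs was lowest in section 4, at 25.7% against 27.9% in the next.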

How the results depend on the processing

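In the layers the number of members called stayed within 1.5 times its value under every alternative tried. With 9 of 10 called in each comparison, only the loss of several members could break that limit. Between BCL and GCL, 8 called for the BCL and 1 for the GCL became 7 and 0 without section 3. For TH+ against TH- the number of members called went from 1 to 2 with DESeq2-style size factors, 0 without the low-count filter and 3 with the section as a block. It ranged from 0 to 3 with a section left out. All genes called there went from 50 to 148 with the block, 29 without section 3 and 31 without section 5. The 45 higher in TH+ and 5 higher in TH- became 96 and 52 with the block, 34 and 32 without the filter and 51 and 22 without section 2. The cause was not tested. Counted once per fold change and alternative, calls of members were gained 6 times and lost 14 times. The gains were in Nrl and Nr2e3 between TH+ and TH- and in Rxrg between ONL and GCL. Rxrg lost calls between ONL and BCL and between BCL and GCL. Prdm1 lost its call between BCL and GCL, and Crx between TH+ and TH-. Signs turned for Otx2 between ONL and BCL with column totals (-0.18) and for Rorb between TH+ and TH- with DESeq2 (0.00898), DESeq2-style size factors (0.017) and the default filter (0.037), none of them past the threshold. With a section left out, Rorb there ranged from -0.13 to 0.0389, Otx2 from -0.0201 to 0.60 and Thrb from -0.24 to 0.54, and Rxrg between ONL and GCL from -1.44 to 0.00169. The Otx2 share between ONL and GCL ranged from -1.32 to 1.01 points, the Nr2e3 share between BCL and GCL from -4.30 to 0.335 and the Rorb share there from -2.57 to 0.0614. For all 3 shares, 3 sections against 3 cannot go below an exact p of 0.1. The other share differences kept their sign under every section left out. The TH+ libraries are the shallowest, and the BCL libraries are the shallowest of the layers.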
